A study of Mus musculus with 75 samples.

Results

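The interchromosomal, or trans, fragments of the Hoxb 4C-seq baits are the restriction fragments on autosomes other than chromosome 11 that carried at least 1 read when the view was taken from a bait inside or beside the Hoxb cluster. They were found by position alone in the 16 tables of the Hoxb-E1 and Hoxb-E2 baits, and numbered 434001 distinct fragments of 533556 in all. Of the others, 40391 lay on chromosome 11 and 59164 on X and Y. Hoxb-E1 listed 331238 trans fragments and Hoxb-E2 listed 261659. A single library listed between 25411 and 110093 of them (median 79207). Fragments of chromosome 11 and of X and Y entered only the totals.

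All libraries came from mouse E14 embryonic stem cells that were taken out of LIF and 2i and given 2 µM retinoic acid (RA) for 24 h, the WT cells included. The groups were WT, Rarα-KO (no RARα), Rxrα-KO (no RXRα) and RARX-DKO (neither receptor), with 2 libraries per genotype and bait. The series text calls these libraries biological replicates, and neither separate cultures nor separate clones are stated, so the spread between them may be technical. Whether both baits were read from the same ligated DNA is not stated either. The 10-kb window with the most reads placed the baits at chr11:96300001-96310000 for Hoxb-E1 and chr11:96580001-96590000, in Skap1, for Hoxb-E2.

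In 4C-seq, chromatin is crosslinked, cut with a restriction enzyme and religated, and everything ligated to a chosen bait is amplified and sequenced. Contacts fall off steeply along the bait's own chromosome, and trans contacts are thinly spread over the rest of the genome. Reads of a fragment count amplified copies, not ligation events. Active, gene-dense chromatin and silent, repeat-rich chromatin tend to occupy different compartments of the nucleus, and trans reads can be asked which of these a bait met. RARα and RXRα form a heterodimer through which RA can act on the Hox clusters. The knockouts ask whether losing these receptors changes where the Hoxb enhancers make contact.

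The listed fragments all begin 3 bases after a GATC and end on the G of the next GATC, so GATC was taken as the cut site. On mm10 the 18 autosomes hold 5683135 such fragments, of which 7.64% were listed at least once. Below are 104 bases of the plus strand around a cut site that bounds each of the fragments on which the results turn, read from the GRCm38 (mm10) genome, with the site in capitals. The first set was found in many or all libraries, and the second was the most read trans fragment of 1 library and had no read in its replicate. The sequences of the second set were chosen after their values were seen.
chr2 repeat pair, chr2:126218576-126218679: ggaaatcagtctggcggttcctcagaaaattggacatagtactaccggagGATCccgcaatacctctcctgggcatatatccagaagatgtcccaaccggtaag
chr17 rRNA gene, chr17:39846312-39846415: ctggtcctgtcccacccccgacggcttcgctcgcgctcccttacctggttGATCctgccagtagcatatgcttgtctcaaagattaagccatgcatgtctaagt
Lars2, chr9:123461960-123462063: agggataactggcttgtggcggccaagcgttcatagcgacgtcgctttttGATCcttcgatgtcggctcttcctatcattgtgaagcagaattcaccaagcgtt
Chl1, chr6:103648925-103649028: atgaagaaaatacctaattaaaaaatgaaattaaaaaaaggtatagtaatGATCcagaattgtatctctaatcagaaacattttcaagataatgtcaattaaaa
Khdrbs3, chr15:69077450-69077553: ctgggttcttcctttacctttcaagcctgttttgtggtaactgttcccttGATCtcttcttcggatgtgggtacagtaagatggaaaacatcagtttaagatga
Dhx37, chr5:125429237-125429340: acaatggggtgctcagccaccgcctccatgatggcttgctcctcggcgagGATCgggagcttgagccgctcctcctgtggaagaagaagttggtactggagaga
Lbhd2, chr12:111407018-111407121: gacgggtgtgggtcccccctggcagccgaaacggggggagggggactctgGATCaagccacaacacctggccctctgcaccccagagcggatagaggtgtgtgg
Fcrl5, chr3:87488154-87488257: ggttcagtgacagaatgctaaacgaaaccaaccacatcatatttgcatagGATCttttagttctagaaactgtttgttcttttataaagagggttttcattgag
A tag of 36 bases running from the site into the fragment was used to ask how often the same end occurs. Copies were counted among all cut sites of the assembled chromosomes, with chromosome 11, X and Y included. At the chr2 repeat pair the tags occurred 3577 and 11867 times. The sites at Khdrbs3, Dhx37, Lbhd2 and Fcrl5 had tags that occurred once on either side, and so did the Chl1 site, although 54.8% of its 104 bases are marked as repeats. At Lars2 and at the chr17 rRNA gene the tag on the right of the site occurred 2 times and that on the left once. The bases shown at Lars2 are known as a stretch of large-subunit ribosomal RNA sequence within that gene. The GC content of the printed sequences ran from 21.2% at Chl1 to 67.3% at Lbhd2.

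The libraries held 3398112 to 47639838 reads, of which 1339604 to 16259156 were trans. Hoxb-E1 libraries were alike in depth, with 35201280 to 47639838 reads, whereas those of Hoxb-E2 ran from 3398112 in RARX-DKO replicate 2 to 42841488 in WT replicate 1. A further feature of the libraries touches several results. Fragments with 1000 or more reads in a library often had a few reads in the libraries of other genotypes that carry the same replicate number at the same bait. Across 48 ordered pairs of this kind, 0.949% to 85.7% (median 22.5%) of such fragments had a read in the other library, where their reads were typically a small fraction of those in the first (median over pairs of the median ratio 0.0560%). Between libraries of other numbers and genotypes at the same bait the share was 0.634% to 6.39% (median 2.90%), and between baits at most 4.63%. The highest share was that of Hoxb-E1 Rxrα-KO replicate 2 in RARX-DKO replicate 2. Fragments seen this way at under 1% of the reads of another library of the same number made up at most 7.12% of a library's trans fragments and at most 0.204% of its trans reads, and results are given with and without them where they changed.

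**Figure D1:**
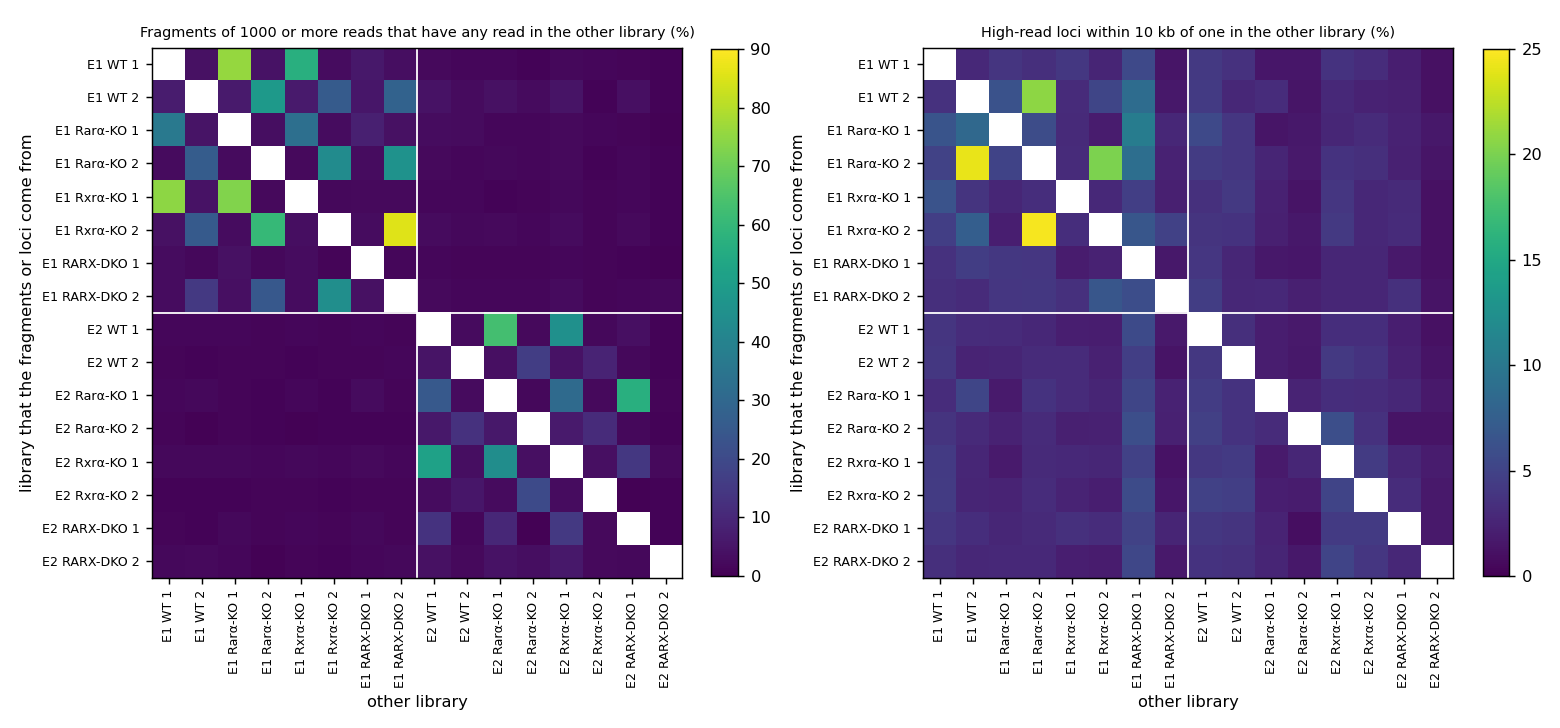
Each cell is an ordered pair of libraries: the rows give the library the fragments or loci come from, the columns the other library, E1 and E2 the baits, and 1 and 2 the replicate numbers. The colour on the left is the percentage of fragments with 1000 or more reads that had any read in the other library (0.949% to 85.7% for the same bait and number, at most 6.72% within a genotype), and on the right the percentage of high-read loci lying within 10 kb of one in the other library, which reached 24.7%.

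The share of reads that left the bait's chromosome was ordered by genotype, and in the same way at both baits. In WT libraries of Hoxb-E1, 33.8% and 34.0% of all reads were trans. Rarα-KO libraries had 38.2% and 38.5%, RARX-DKO libraries 38.5% and 37.6%, and Rxrα-KO libraries 27.5% and 27.1%. No knockout library overlapped WT, and Rarα-KO overlapped RARX-DKO.

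At Hoxb-E2 the WT libraries had 33.6% and 35.1% trans reads. Rarα-KO had 39.2% and 41.0%, RARX-DKO 41.7% and 39.4%, and Rxrα-KO 27% and 27.6%. Again each knockout stood clear of WT, with Rarα-KO and RARX-DKO above it, overlapping each other, and Rxrα-KO below it.

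Relative to WT, whose means were 33.9% ± 0.107 (SD, n = 2) at Hoxb-E1 and 34.3% ± 1.11 (SD, n = 2) at Hoxb-E2, the trans share in Rarα-KO was 4.45 and 5.75 percentage points higher. In RARX-DKO it was 4.16 and 6.22 points higher, and in Rxrα-KO it was below WT, with differences of -6.58 and -7.06 points. An exact permutation test over the 105 ways to split 8 libraries into 4 pairs gave p = 0.0286 at Hoxb-E1 and p = 0.0190 at Hoxb-E2 for any difference between genotypes, where the smallest possible value is 0.00952. Both became 0.0286 after Benjamini-Hochberg adjustment over the 3 planned tests. A single knockout against WT, 2 libraries against 2, cannot go below an exact two-sided p of 0.333, so no pair was called.

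The trans share is a complement of the reads on chromosome 11, most of which lay near the bait. Reads within 1 Mb of the bait made up 54.3% and 55.6% of WT libraries at Hoxb-E1, 48.4% and 48.2% in Rarα-KO, 49.7% and 49.1% in RARX-DKO, and 59.3% and 61.9% in Rxrα-KO. At Hoxb-E2 the same shares were 50.5% and 49.6% in WT, 44.2% and 42.0% in Rarα-KO, 43.1% and 44.1% in RARX-DKO, and 57.5% and 57.2% in Rxrα-KO. The near share thus ran opposite to the trans share in every knockout at both baits, and the exact omnibus permutation p was 0.00952 at Hoxb-E1 and 0.0286 at Hoxb-E2 (0.0556 and 0.0833 adjusted over 18 tests added after seeing the data). The rest of chromosome 11 held 8.67% to 15.8% of reads, with exact p-values of 0.295 and 0.162 between genotypes.

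When reads within 1 Mb were left out of the denominator, the trans share of the Rxrα-KO libraries stayed below WT at both baits, with differences of -5.94 points at Hoxb-E1 and -4.71 at Hoxb-E2. Those of Rarα-KO and RARX-DKO then overlapped WT at Hoxb-E1, with differences of -1.10 and -0.0219 points, but stayed above it at Hoxb-E2, with 1.72 and 3.20 points. The exact permutation p between genotypes was 0.143 at Hoxb-E1 and 0.0190 at Hoxb-E2 (0.184 and 0.0429 adjusted over 9 tests). By number of fragments in place of reads, 78.8% to 82.8% of what a library listed was trans, and the differences from WT lay between -0.179 and 1.51 points. The genotype order was thus a property of reads and was not present in the count of fragments.

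Between baits the trans share differed little. Averaged over genotypes it was 1.19 points higher at Hoxb-E2, with p = 0.0231 by an exact permutation of baits within genotype (0.0286 adjusted over 3 tests). The sign turned to -4.71 points without the reads within 1 Mb, since Hoxb-E2 had 4.80 points fewer of its reads there and 3.70 points more on the rest of chromosome 11 (exact permutation, adjusted p = 0.0139 for each of these 3 differences).

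**Figure D2:**
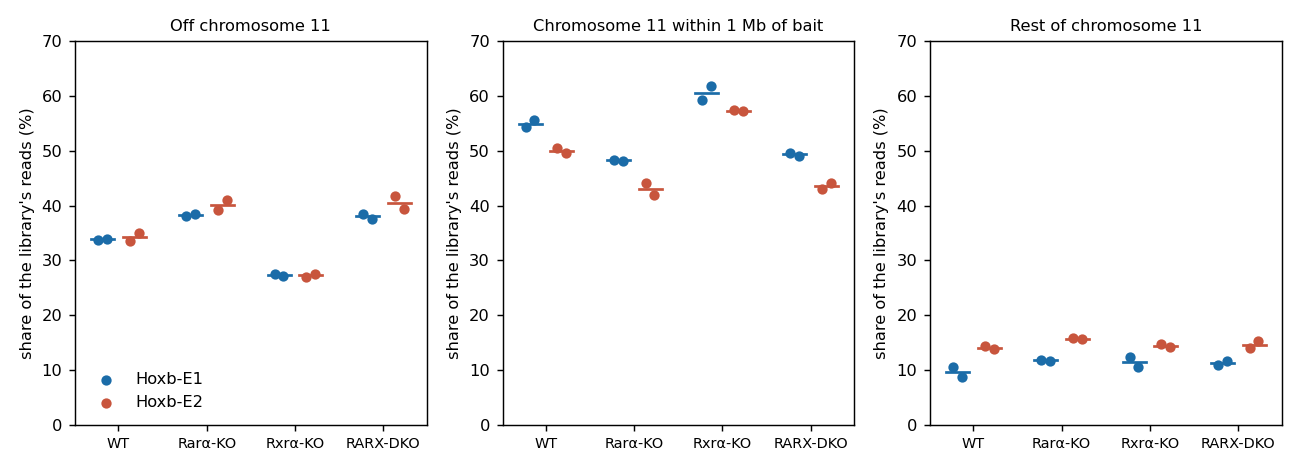
Share of a library's reads (y axis, percent) that lay on autosomes other than 11 (left), within 1 Mb of the bait (middle) and on the rest of chromosome 11 (right), for the 4 genotypes on the x axis; points are the 2 libraries of each genotype and bait, and bars their mean. In the left panel Rxrα-KO lies at 27% to 27.6%, WT at 33.6% to 35.1%, and Rarα-KO and RARX-DKO at 37.6% to 41.7%.

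Trans reads were concentrated in few fragments. Fragments with 1 read made up 30.8% to 53.8% of a library's trans fragments and 0.183% to 1.02% of its trans reads. Those under 10 reads were 74.5% to 85.9% of fragments. Fragments with 1000 or more reads, 373 to 3004 per library, were 1.47% to 3.11% of fragments and held 47.8% to 94.3% of trans reads. The lowest of these read shares was that of the shallowest library, Hoxb-E2 RARX-DKO replicate 2. The 10 most read fragments alone held 2.10% to 9.24%.

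The low-read and the high-read fragments lay in different sequence. In fragments with 1 read a median over libraries of 92.9% of bases were marked as repeats, against 32.8% in fragments with 1000 or more reads and 37.7% in all GATC fragments of the 18 autosomes. Both end tags were unique in the genome in 6.71% of 1-read fragments (range over libraries 2.77% to 9.92%) but in 79.7% of those with 1000 or more reads (71.3% to 84.7%), and the genome as a whole had 75.8%. The ranges of these classes did not overlap over 16 libraries. Fragments of 100 to under 1000 reads lay between, with 52.0% of bases in repeats and 53.1% with unique ends.

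Fragments with 1000 or more reads were also longer and closer to genes. Their median length was 315 bases against 148 for 1-read fragments and 261 for the genome. They lay inside a gene in 44.9% of cases against 24.7% and 39.2%, and within 10 kb of a gene start in 19.2% against 6.46% and 13.9%. The GC content of the 10 kb around them was 43.5%, against 40.8% and 41.8%. Among fragments with 100 or more reads, no difference between genotypes passed the test in the 4 features compared (GC of 10 kb, inside a gene, near a gene start, share in repeats), with adjusted p of 0.243 or more by exact permutation. Between baits, 41.7% and 41.0% of such fragments lay inside genes in WT and Rarα-KO at Hoxb-E2 against 38.7% and 39.0% at Hoxb-E1, and over all genotypes Hoxb-E2 was 2.69 points higher (exact permutation, adjusted p = 0.0556).

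**Figure D3:**
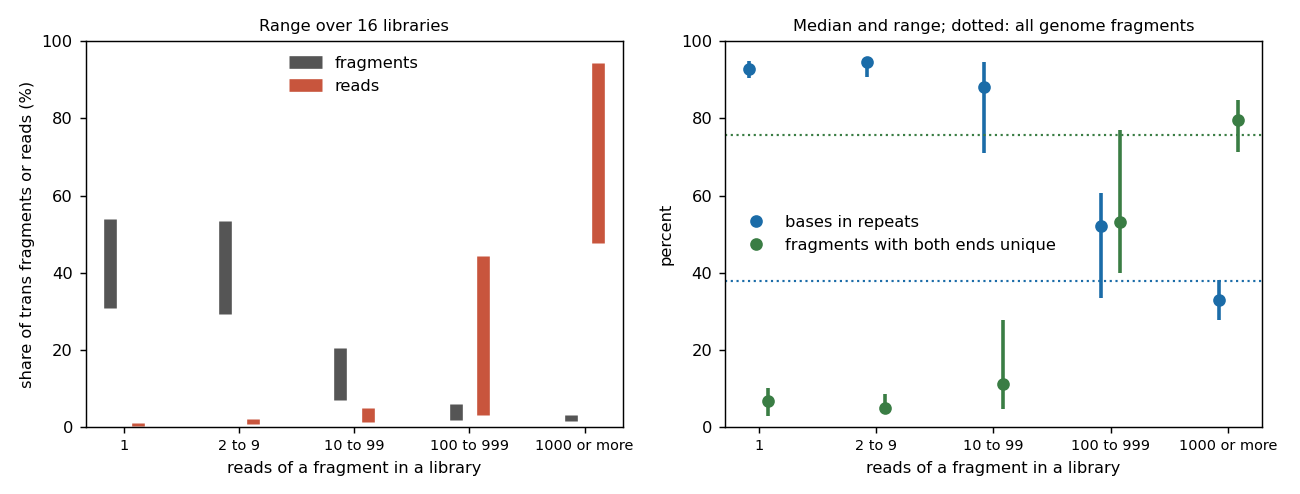
Left, the range over 16 libraries of the share (y axis, percent) of trans fragments (grey) and trans reads (red) in each class of reads per fragment (x axis). Right, the median and range over libraries of the percentage of bases in repeats (blue) and of fragments whose 2 end tags are unique in the genome (green), with all GATC fragments as dotted lines; repeats drop from 92.9% to 32.8% and unique ends rise from 6.71% to 79.7% across the classes.

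Reads of neighbouring fragments were often the same. Of pairs of listed trans fragments that meet at a cut site, 63.2% to 95.9% per library carried equal reads. The Lars2 site above is one: in Hoxb-E1 RARX-DKO replicate 2 the fragments on both sides had 109165 reads each. Counting equal neighbours once gave WT trans shares of 31.1% and 31.4% at Hoxb-E1 and kept every knockout on its side of WT. High-read fragments were therefore merged into loci, joining fragments of 100 or more reads that lay within 10 kb. Libraries held 890 to 4270 such loci, 31828 in all.

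Which places were read differed between libraries of one genotype about as much as between genotypes. Of a library's trans fragments, 7.65% to 41.7% (median 28.6%) were also listed in its replicate, against medians of 29.0% and 31.4% in libraries of other genotypes at the same bait with another or the same number. The lowest was Hoxb-E2 RARX-DKO replicate 1, whose replicate is the shallowest library. Of fragments with 1000 or more reads, 0.845% to 6.72% (median 3.15%) had any read in the replicate. Of high-read loci, 1.57% to 5.94% (median 3.32%) lay within 10 kb of a locus of the replicate.

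By bait and genotype the shared loci were few. In Hoxb-E1 WT, 79 of 2758 loci of replicate 1 were near a locus of replicate 2, which is 2.86%, and in Rarα-KO 96 of 1641 (5.85%) were. In Hoxb-E2 WT the number was 99 of 2963 (3.34%), and in RARX-DKO 25 of 1498 (1.67%). Between libraries of different genotype and number at the same bait the share ran from 0.935% to 9% (median 3.33%), and between baits of one genotype, in libraries of unlike number, from 1.10% to 5.28% (median 2.99%). The median within a genotype was thus close to both.

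A few pairs stood apart. The largest shares of loci were among Hoxb-E1 libraries of number 2: 383 of 1548 loci of Rxrα-KO replicate 2 (24.7%) and 460 of 2207 loci of WT replicate 2 (20.8%) were near a locus of Rarα-KO replicate 2. In the first pair, 254 fragments had 1000 or more reads in both libraries. No such pair occurred at Hoxb-E2, where libraries of the same number and other genotypes shared 1.28% to 4.62% of loci.

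Across 1 Mb windows, log2 reads, scaled to the library's trans total, of the 2 libraries of a genotype correlated at r of 0.05 to 0.14, and at a median of 0.24 in 5 Mb windows. The number of fragments per window correlated at 0.66 to 0.92. The same number correlated at 0.57 to 0.92 between libraries of other genotypes at the same bait and number, and at 0.68 to 0.92 between the baits of one library number and genotype. These values describe windows of shared genome, which differ in cut sites, repeats and GC content, and are not tests. The profile of listed fragments along the genome was therefore common to all libraries, while the reads in them were not.

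Some fragments were nonetheless read everywhere. After merging loci over libraries there were 25532 places, of which 20868 (81.7%) held a locus in 1 library, 272 in 4 or more, 26 in 8 or more, and 4 in all 16. Of fragments, 21 had a read in all 16 libraries, 2941 in all 8 of Hoxb-E1 and 64 in all 8 of Hoxb-E2. The 2941 held 0.817% to 3.83% of a Hoxb-E1 library's trans reads, and the 64 held 0.438% to 1.52% at Hoxb-E2.

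One of these 4 places is a fragment of 54284 bases at chr14:19415422-19469705, which contains the predicted gene Gm21738 and has 84.4% of its bases in repeats. At Hoxb-E1 it held 0.103% and 0.252% of trans reads in WT, 0.250% and 0.117% in Rarα-KO, 0.121% and 0.382% in Rxrα-KO, and 0.0618% and 0.0967% in RARX-DKO. At Hoxb-E2 it held 0.0434% and 0.137% in WT, 0.0917% and 0.0890% in Rarα-KO, 0.180% and 0.0339% in Rxrα-KO, and 0.0628% and 0.00844% in RARX-DKO. RARX-DKO was thus the lowest genotype at Hoxb-E1, below every other library there, whereas at Hoxb-E2 its range overlapped those of WT and Rxrα-KO. Another is the chr2 repeat pair, chr2:126218481-126219133, which lies 2269 bases from Gm17555 and is wholly within repeats. Its larger fragment had 2409 to 32363 reads at Hoxb-E1 and 172 to 11083 at Hoxb-E2. The 4 places were the only ones with a locus in both libraries of all 4 genotypes at both baits.

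Next came chr9:3000004-3038678, a stretch at the assembled start of chromosome 9 with predicted genes such as Gm10722 and Gm11168, 95.9% of it in repeats, which held a locus in 15 libraries. A place in an intron of the long noncoding gene Gm33838, chr9:35305001-35307478, held one in 14. A single fragment in an intron of Chl1, a neural cell adhesion gene, at chr6:103648978-103649364, held one in 13, with 1168 to 59324 reads at Hoxb-E1. The ribosomal RNA gene CT010467.1 at chr17:39843001-39848194, where copies of ribosomal DNA are represented in the assembly, held one in 9, of which 7 were Hoxb-E1 libraries.

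Other fragments met the rule of a read in all 8 Hoxb-E1 libraries but owed their rank to few libraries. The fragment pair in the rRNA-like stretch of Lars2, whose tag is not unique on one side, had 1 to 420 reads in 7 Hoxb-E1 libraries and 109165 in RARX-DKO replicate 2. The rRNA fragment chr17:39846365-39846585 had 20622 and 35704 reads in WT, 54192 and 5575 in Rarα-KO, 168 and 3 in Rxrα-KO, and 14 and 6 in RARX-DKO. WT and Rarα-KO were therefore high, and Rxrα-KO and RARX-DKO low without overlap. Its neighbour across the cut site, which had 14009 reads in Rxrα-KO replicate 2, did not keep that order. At Hoxb-E2 the fragment had 34356 reads in Rxrα-KO replicate 1 and at most 22 in any other library.

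In 10 of the 16 libraries the most read trans fragment was one read in all 16, and in the other 6 it had no read in the replicate. These 6 led 1 library each. In Hoxb-E1 RARX-DKO replicate 2 the top fragment, chr15:69077503-69077773 in an intron of Khdrbs3, had 139171 reads, none in its replicate and at most 7 elsewhere. The top fragment of Hoxb-E1 RARX-DKO replicate 1, chr5:125429290-125429798 over an exon of Dhx37, an RNA helicase gene, had 39802 reads and was listed in no other library. In Hoxb-E2 Rarα-KO replicate 1 the leader was chr12:111407071-111407312 in Lbhd2, with 65244 reads, none in its replicate and 4016 in the next highest library. In Hoxb-E2 Rarα-KO replicate 2 it was chr3:87488207-87489468 in Fcrl5, a gene of the Fc receptor-like family, with 10091 reads and none in any other library. The sites at the left of these 4 fragments are those printed above, with tags that occur once. Hoxb-E2 RARX-DKO replicate 2 was led by chr12:109532300-109532464, 56729 bases from Rtl1, with 7387 reads and none elsewhere. Hoxb-E1 Rarα-KO replicate 2 was led by chr2:62023032-62023270, a fragment wholly in repeats 23192 bases from Slc4a10, with 93588 reads, none in its replicate and at most 34 elsewhere.

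Places that recurred within a genotype were scarce. In 558 places both libraries of at least 1 bait and genotype held a locus, in 36 those of 2 or more groups, and in 8 those of 4 or more.

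Summed over libraries, high-read loci were more frequent in gene-dense, GC-rich windows and listed fragments in the opposite. All 2284 windows of 1 Mb that were mostly sequenced held a locus in at least 1 library, with a median of 13 and a maximum of 111. Spearman's rho of the number of loci was 0.57 with GC content and 0.51 with coding gene starts, and that of the number of listed fragments was -0.72 with GC content and 0.73 with the share in repeats. In the lowest quintile of windows by GC content (35.7% to 38.5%) the mean was 9.63 loci, and in the highest (44.8% to 53.7%) 19.5. Listed fragments per 1000 genome fragments and library ran the other way, from 19 to 5.87.

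Each library showed the same signs, with rho of loci and GC content between 0.11 and 0.35, and of fragments per genome fragment and GC content between -0.74 and -0.52. Windows without a gene start held a mean of 10.1 loci and those with 20 or more held 19.4. Both baits had the gradient (5.40 to 10.0 loci for Hoxb-E1 and 4.23 to 9.44 for Hoxb-E2 from the lowest to the highest quintile), and the number of loci at the 2 baits correlated at a rho of 0.34. Windows share libraries and sequence composition, so these are descriptions over 2284 windows.

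**Figure D4:**
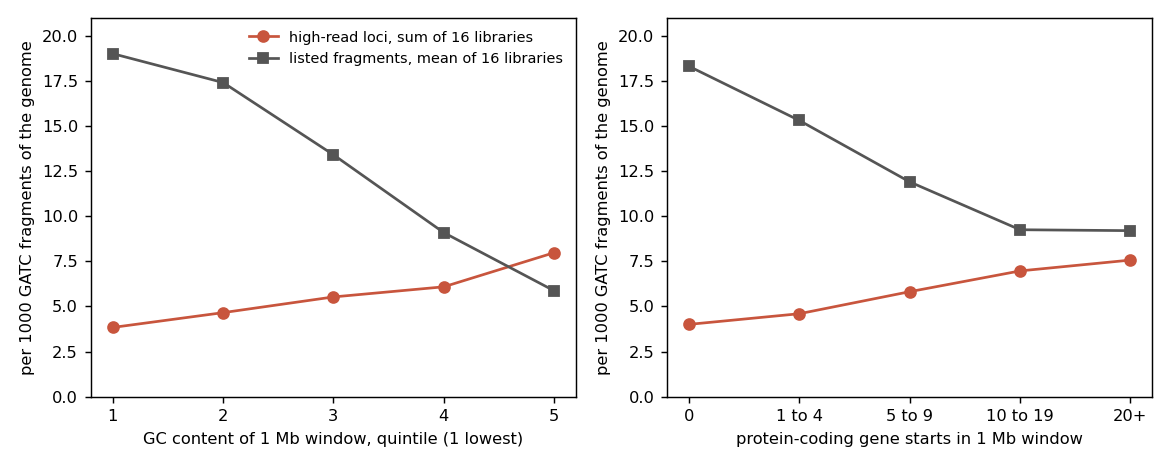
High-read loci summed over 16 libraries (red) and listed fragments as the mean of 16 libraries (grey), both per 1000 GATC fragments of the genome (y axis), in 1 Mb windows grouped by GC content (left) and by number of protein-coding gene starts (right). Loci rise from 3.84 to 7.98 and fragments drop from 19 to 5.87 from the lowest to the highest quintile by GC content.

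The windows with the most loci, picked here by that number, held clusters of near-identical genes. The window chr8:20000001-21000000, which holds beta-defensin and predicted genes such as Defb33, had 111 loci in 14 libraries, up to 23 in a single library. The window chr4:147000001-148000000, with Rex2 and other zinc finger genes such as Zfp991, had 71. Adjacent windows from 3 to 8 Mb of chromosome 14, with families of predicted genes, had 43 to 63 each. Reads from near-identical copies cannot be assigned to a copy, so loci here are uncertain. Windows with ordinary genes followed: chr15:79000001-80000000 (H1f0, Eif3l, Micall1 and 34 gene starts in all) held 43 loci, 1 to 5 in every one of the 16 libraries, and chr3:88000001-89000000 (Bcan, Mef2d, Iqgap3) held 42.

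The same contrast was seen between chromosomes. Chromosome 3, the poorest in GC (40.5%), held 8.14% of a library's listed fragments by median, 1.18 times its share of genome fragments. Its median share of loci was 0.896 times its share of genome fragments. For chromosome 19, with 42.7% GC and 12.4 genes per Mb, the same ratios were 0.763 for listed fragments and 1.14 for loci. Those of chromosome 1 were 1.10 and 0.873. Over 18 chromosomes, rho with GC content was -0.82 for fragments and 0.68 for loci.

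**Figure D5:**
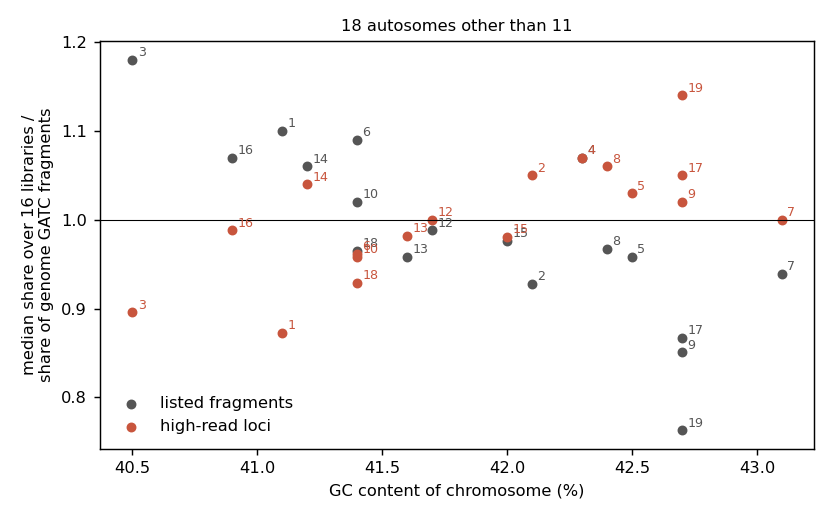
Each point is 1 of the 18 autosomes other than 11, labelled by number: the x axis is its GC content (percent) and the y axis its median share over 16 libraries divided by its share of all GATC fragments, for listed fragments (grey) and high-read loci (red). Chromosome 3 lies at 1.18 for fragments and 0.896 for loci, and chromosome 19 at 0.763 and 1.14.

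The chromosome shares themselves were steady by fragment and variable by read. The coefficient of variation between a bait's 8 libraries had a median over chromosomes of 2.08% (Hoxb-E1) and 2.60% (Hoxb-E2) for listed fragments, 11.5% and 10.4% for loci, and 18.5% and 15.7% for reads. Chromosome 2 held 6.60% to 9.71% of trans reads, and chromosome 19 held 2.11% to 4.90%. No chromosome's share of trans reads was called different between a knockout and WT at either bait by edgeR's quasi-likelihood test (0 of 18 in each of 6 comparisons after Benjamini-Hochberg adjustment, a background of 0%). At an unadjusted p under 0.05 there were 3 over the 6 comparisons, and DESeq2 called 0 with 5 at that level.

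The fitted log2 differences of chromosomes lay between -0.82 and 0.56, with standard errors of up to 0.36. The largest was chromosome 15 in Hoxb-E2 Rarα-KO, at -0.82 (SE 0.34, adjusted p = 0.597 by edgeR). At Hoxb-E2, leaving out WT replicate 2 gave 1 call in RARX-DKO, and leaving out Rarα-KO replicate 2 gave 1 in Rarα-KO. Counting loci in place of reads gave 1 call, at Hoxb-E1 Rarα-KO. Between baits 0 chromosomes were called (0%), with the largest differences at chromosomes 6 and 12, -0.28 each (adjusted p = 0.358 by edgeR). The bait by genotype interaction likewise gave 0 calls (0%).

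In 1 Mb windows, reads varied widely between the libraries of a genotype. The common dispersion was 1.74 at Hoxb-E1 and 1.78 at Hoxb-E2, which is a coefficient of variation of 132% and 133%. By edgeR's quasi-likelihood test with Benjamini-Hochberg adjustment over 2292 windows, Hoxb-E1 gave 0 calls in Rarα-KO (0%, with 127 at an unadjusted p under 0.05), 1 in Rxrα-KO (0.0436%, with 156) and 0 in RARX-DKO (0%, with 95). Hoxb-E2 gave 1 in Rarα-KO (0.0436%, with 243), 0 in Rxrα-KO (0%, with 109) and 1 in RARX-DKO (0.0436%, with 196). DESeq2 called far more: 340, 357 and 264 windows at Hoxb-E1 (14.8%, 15.6% and 11.5%) and 345, 186 and 327 at Hoxb-E2 (15.1%, 8.12% and 14.3%).

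Windows called by DESeq2 at both baits in the same direction numbered 34 in Rarα-KO, which is 10.0% of those at Hoxb-E1 and 9.86% of those at Hoxb-E2. They numbered 17 in Rxrα-KO (4.76% and 9.14%) and 17 in RARX-DKO (6.44% and 5.20%). Windows called at both baits in either direction were 60, 36 and 39, so many of those called at both had opposite signs. Of all windows, DESeq2 called 14.8% at Hoxb-E1 and 15.1% at Hoxb-E2 in Rarα-KO, in either direction. In Rxrα-KO it called 15.6% and 8.12%, and in RARX-DKO 11.5% and 14.3%. Whether more windows were shared than these rates alone would give was not tested. The WT libraries of a bait served all 3 comparisons at that bait.

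The 3 windows called by edgeR held few reads, and all 3 were lower in the knockout. Most windows were lower in these comparisons. Of all 2292, 1342 were lower in Rxrα-KO at Hoxb-E1, and 1407 and 1351 in Rarα-KO and RARX-DKO at Hoxb-E2. The 3 called windows were also called without the fragments that may be read across libraries. The window chr18:69000001-70000000 at Hoxb-E1 had 40 and 379 reads in WT and 2 and 2 in Rxrα-KO (log2 fold change -6.52, SE 1.18, adjusted p = 7.65e-05). With reads capped at 10 per fragment this window was not called (-4.36, adjusted p = 0.814 by edgeR). It had 16 and 15 reads in Rarα-KO and 188 and 7 in RARX-DKO, which also lacks RXRα. Without Rxrα-KO replicate 1 or 2 the adjusted p was 0.518 and 0.110.

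The end of chromosome 2, chr2:182000001-182113224, had 15 and 1623 reads in WT at Hoxb-E2 and 2 and 0 in Rarα-KO (-9.78, SE 2.07, adjusted p = 0.00556 by edgeR). The window chr19:27000001-28000000, which holds Vldlr (a lipoprotein receptor), Kcnv2 and Pum3, had 25 and 881 reads in WT at Hoxb-E2 and 9 and 0 in RARX-DKO (-7.10, SE 1.62, adjusted p = 0.0271). In both, WT replicate 2 was the high library, most of whose reads lay in few fragments (the highest held 804 and 435). Without it the log2 fold changes were -2.67 and -1.58, with adjusted p of 0.744 and 0.856 by edgeR. Neither call was made without either knockout library (adjusted p of 0.534 to 0.716) or with reads capped at 10 per fragment. Fold changes of windows with a library at 0 depend on the prior count of the fit.

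Between the baits 0 windows were called (0%) by edgeR, with 165 at an unadjusted p under 0.05, and 315 by DESeq2 (13.7%). The bait by genotype interaction was called for 1 window in Rarα-KO (0.0436%, with 260 at an unadjusted p under 0.05), 0 in Rxrα-KO (0%, with 220) and 2 in RARX-DKO (0.0873%, with 260), where DESeq2 called 293, 226 and 250 (12.8%, 9.86% and 10.9%).

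The lists of genes described next were windows and starts of genes on other chromosomes that a Hoxb enhancer might be thought to meet. Of all 19168 coding gene starts, 5431 (28.3%) had a high-read locus within 10 kb in at least 1 of the 16 libraries. Of 15 trans Hox and Evx genes 3 did, of 22 genes of RA signalling and response 3, of 16 pluripotency genes 8, and of 20 developmental Polycomb targets 0. At 20 kb the shares were 47.9% of all genes and 53.3%, 22.7%, 62.5% and 25% of the lists in that order, and at 50 kb 78% of all genes and 86.7%, 77.3%, 93.8% and 55.0% of the lists. The trans Hox genes were thus below all genes at 10 kb and above them at 20 and 50 kb. The lists are small, their windows differ in GC content (medians of 43.8%, 44.9%, 45.9% and 43.7% against 41.6% for all windows), and no test was made.

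The Hox clusters other than Hoxb carry paralogs of the bait's own genes. Their 4 windows had a median of 17.0 loci, against 13 for all windows. A fragment at chr6:52204275-52204811, over the start of Hoxa5, had 1332 reads in Hoxb-E1 Rarα-KO replicate 2 and 1558 in Rxrα-KO replicate 2, the pair of libraries with the highest share of loci in common, and it lies within 10 kb of Hoxa3 too. Hoxc13 had a fragment of 304 reads in Hoxb-E2 WT replicate 1. No locus lay within 10 kb of the Hoxd genes of the list. The window of Hoxa genes, chr6:52000001-53000000, held 1 to 20 listed fragments per library, that of Hoxc4, chr15:103000001-104000000, 7 to 53, and that of Hoxd genes, chr2:74000001-75000000, 8 to 30.

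Reads in those windows varied among libraries of one genotype. In the Hoxa window Hoxb-E1 libraries had 3610 and 797 reads in WT, 29961 and 2758 in Rarα-KO, 657 and 3177 in Rxrα-KO, and 7880 and 93 in RARX-DKO. In the Hoxd window the Hoxb-E1 numbers were 692 and 216 in WT, 7040 and 48 in Rarα-KO, 4584 and 23 in Rxrα-KO, and 15592 and 11354 in RARX-DKO. RARX-DKO was thus above WT in the Hoxd window, and every other knockout value here overlapped WT. At Hoxb-E2, where depths differ, the reads of the Hoxd window in RARX-DKO and WT overlapped once scaled to each library's trans reads. At Hoxb-E1 the 4 windows of the Hox list had median log2 differences of 2.65 in Rarα-KO, 1.99 in Rxrα-KO and 2.39 in RARX-DKO. Those of all windows were -0.62, -0.59 and -0.21. The 3 comparisons share the same 2 WT libraries. At Hoxb-E2 the list medians were 0.08, -1.32 and -0.22, against -1.01, -0.23 and -0.70 for all windows. In each comparison 0 of the 4 were called by edgeR. At an unadjusted p under 0.05 there were 0 at Hoxb-E1, and at Hoxb-E2 1 in Rarα-KO, 1 in Rxrα-KO and 0 in RARX-DKO.

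Among RA genes, Rxra itself, the gene knocked out in the Rxrα-KO cells, had a fragment of 15566 reads at chr2:27679331-27679509, 2891 bases from its start, in Hoxb-E1 Rxrα-KO replicate 1 and in no other library as a locus. Crabp2, which carries RA within the cell, had a fragment of 1224 reads in the same library, and Aldh1a2, which makes RA, had 8018 reads in Hoxb-E1 WT replicate 1. Each was met in 1 library. The 21 windows of the RA list had a median of 15.0 loci, against 13 for all windows. Their median log2 differences from WT lay between -0.55 and -0.02 over the 6 comparisons, where those of all windows lay between -1.01 and -0.21, and 0 windows were called by edgeR. At an unadjusted p under 0.05 there were 2 to 4 in each comparison (9.52% to 19%), where 4.14% to 10.6% of all windows were at that level.

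The pluripotency genes with a locus were Sox2, Klf2, Esrrb, Tbx3, Sall4, Tet1, Dppa3 and Fgf4. At Klf2, a transcription factor of naive cells, the fragment over the gene start had 1518 reads in Hoxb-E1 WT replicate 2 and 204 in Rarα-KO replicate 2, another pair of the same number that shared many loci. Sall4 had 8099 reads in Hoxb-E1 RARX-DKO replicate 2, and Fgf4 5661 in Hoxb-E1 Rxrα-KO replicate 2. Sox2, the partner of Oct4, had 3266 in Hoxb-E1 WT replicate 2. None of the 8 had a locus in both libraries of a genotype. The 15 windows of this list had a median of 17.0 loci, and the 20 Polycomb windows a median of 13.5, and in neither list was a window called by edgeR in any comparison, with 0 to 3 windows (0% to 15.0%) at an unadjusted p under 0.05 in each comparison of a knockout with WT, against the same 4.14% to 10.6% of all windows.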

How the data were processed

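4C-seq was measured in 16 libraries, 4 genotypes by 2 baits by 2 replicates. The deposited tables give a count of reads per restriction fragment, made by the authors with a program that is not given in the sources used here. The submitters' processing notes list Bowtie2 2.3.1 and the mm10 build beside MACS2 2.2.7.1, DESeq2 1.18.1, HTSeq 0.9.1 and HISAT2 2.1.0 without role. The q-values, p-values and normalised columns of those tables, and all other files of the series, were not used. No label gives molecular identifiers, so reads are not ligation events. The members and gene lists were chosen with earlier results of these data known.

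Fragments were kept by chromosome, and their sequence, repeat marking, genes and cut sites were read from the GRCm38 (mm10) reference. Reads were summed per 1 Mb window and per chromosome and fitted with edgeR 4.0.16 (quasi-likelihood, robust for windows; R 4.3.3), the 8 libraries of a bait together, with the total of trans reads as library size, windows of a mean of 10 or more reads, and Benjamini-Hochberg adjustment at 0.05. The standard error of a log2 fold change is its size divided by the root of F. Trans shares were tested by exact permutation. The procedure was tested on simulated data, and the share of planted changes it recovered is not reported here. A window without a call is therefore not shown to be unchanged. Depth ran from 1339604 to 16259156 trans reads, and p-values measure the spread between these libraries, which may be technical.

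Named fragments were the 10 with the highest mean share of trans reads at each bait among those read in all 8 of its libraries, and named windows those called; some of these fragments are not reported here. High-read loci, recurrent places, leading fragments of single libraries and the windows with most loci were chosen after values were seen. Alternatives were TMM factors, DESeq2 1.42.0, no filter, 5 Mb windows, fragments in place of reads, reads capped at 10, a replicate block, and leaving out each library. Loci, the removal of fragments that may be read across libraries, equal neighbours counted once, and the alternatives for the bait and interaction tests were added after seeing the data. Replicate numbers were not taken to pair libraries across genotypes.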

Additional observations from a re-analysis of the deposited data

Results flagged for a closer look

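Differences between the baits in a knockout effect passed the test of the interaction itself in 3 windows, by edgeR's quasi-likelihood test with Benjamini-Hochberg adjustment over 2292 windows. At chr2:182000001-182113224 the Rarα-KO effect was lower at Hoxb-E2 than at Hoxb-E1 by a log2 difference of -10.61 (adjusted p = 0.00206). The interaction there was not called with TMM factors (-9.7, adjusted p = 0.35) or by DESeq2 (-9.08, adjusted p = 0.0525). The window's reads were 3 and 14 in WT and 38 and 0 in Rarα-KO at Hoxb-E1, and 15 and 1623 in WT and 2 and 0 in Rarα-KO at Hoxb-E2. Without Hoxb-E2 WT replicate 2 the difference was -3.52 (adjusted p = 0.769), and without Hoxb-E1 Rarα-KO replicate 1 it was -4.01 (0.971).

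At chr12:53000001-54000000, which holds Npas3, a neuronal transcription factor gene, the RARX-DKO effect differed by -12.40 (adjusted p = 0.0117). The reads were 16 and 32 in WT and 2527 and 69 in RARX-DKO at Hoxb-E1, and 8754 and 40 in WT and 38 and 2 in RARX-DKO at Hoxb-E2. Without Hoxb-E2 WT replicate 1 the difference was -6.95 (0.237), and without Hoxb-E1 RARX-DKO replicate 1 it was -8.35 (0.443).

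At chr19:27000001-28000000, with Vldlr, the RARX-DKO effect differed by -10.55 (adjusted p = 0.0117). The reads were 223 and 103 in WT and 1144 and 2496 in RARX-DKO at Hoxb-E1, and 25 and 881 in WT and 9 and 0 in RARX-DKO at Hoxb-E2. Without Hoxb-E2 WT replicate 2 the difference was -5.06 (0.627). In each of these windows 1 library held most of the WT reads at Hoxb-E2. None of the 3 was called with reads capped at 10 per fragment.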

How the results depend on the processing

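The genotype order of the trans share held when each library was left out. The difference from WT ran from 4.33 to 4.58 points (Rarα-KO), -6.77 to -6.39 (Rxrα-KO) and 3.72 to 4.60 (RARX-DKO) at Hoxb-E1, and from 4.89 to 6.61, -7.84 to -6.27 and 5.08 to 7.37 at Hoxb-E2. The difference between baits ran from 0.900 to 1.47. Other measures changed it. Without reads within 1 Mb of the bait, the differences in the same order were -1.10, -5.94 and -0.0219 at Hoxb-E1 and 1.72, -4.71 and 3.20 at Hoxb-E2, and -4.71 between baits. By fragments they were 1.25, 0.566 and 0.214, then -0.179, 0.0261 and 1.51, and -1.72 between baits. With reads capped at 10 they were 1.99, -0.430 and -1.02, then 0.813, -1.72 and 0.709, and -4.28 between baits. With equal neighbours counted once, Rxrα-KO at Hoxb-E1 differed by -6.25 and RARX-DKO by 2.98. The exact permutation p for any genotype difference was 0.143 (without 1 Mb), 0.0381 (fragments) and 0.0857 (capped) at Hoxb-E1, and 0.0190, 0.429 and 0.933 at Hoxb-E2. Of these 6, only that without 1 Mb at Hoxb-E2 passed adjustment over 9 tests (0.0429). The cause was not tested.

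Over the 6 comparisons with WT, edgeR's 3 window calls became 6 with TMM factors, 1819 with DESeq2, 1 with reads capped at 10, and 0 with fragments, with fragments less those that may be read across libraries, or with loci in 5 Mb windows. They ran from 1 to 4 when a library was left out, the 1 without Hoxb-E2 WT replicate 2. Chromosome calls were 0, or 1 with loci, and ran from 0 to 1 when a library was left out. Between baits, 0 windows became 315 with DESeq2 and 1 with loci in 5 Mb windows (0 to 1 with a library left out, the 1 without Hoxb-E1 RARX-DKO replicate 1 or Hoxb-E2 Rarα-KO replicate 2). The 3 interaction calls became 769 with DESeq2, 0 in 5 Mb windows, 0 with either count of fragments and 0 with capped reads, and ran from 0 to 3 when a library was left out, 0 without either Hoxb-E1 WT library. They were 1 without Hoxb-E2 WT replicate 2 or either Hoxb-E2 RARX-DKO library. The median r between replicates, 0.08, was 0.24 in 5 Mb windows, 0.56 with capped reads and 0.87 by fragments.

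With the replicate number as a block, 1 window was called against WT (chr18:69000001-70000000) and 1 in the interaction (chr2:182000001-182113224), each in place of 3. Deviations of libraries of the same number correlated in reads at -0.04 to 0.01 at Hoxb-E2 and 0.02 to 0.08 at Hoxb-E1. By fragments r was 0.01 to 0.13 at Hoxb-E2, with 1 of 6 genotype pairs over 0.1, and 0.10 to 0.24 at Hoxb-E1, with 5 of 6. Numbers were not taken as pairs, since no bait had every genotype pair over 0.1 and none was over it in reads.

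Values rest on 2 libraries per group, on reads without molecular identifiers, and on depths that differ at Hoxb-E2. Places in near-identical copies cannot be assigned. Absence of a locus at a gene is not absence of contact at this depth, since most loci were found in 1 library.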
